A study of Homo sapiens with 4 samples.

Results

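*TRIM5*, *TRIM14*, *TRIM21*, *TRIM22*, *TRIM38*, *TRIM56*, *SAMD9* and *SAMD9L* encode intracellular proteins that restrict viruses or tune antiviral signalling. These 8 genes were chosen by name, from their known roles, out of 46660 gene identifiers in the table. Earlier results of these data were known when they were chosen. Each gene was measured by summing the estimated counts of its linear RNAs. All 8 passed the filter of at least 10 counts in 1 of the 2 libraries of a cell line, with at least 121 counts in every library.

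RNA was sequenced from U87MG and U251MG, established human glioblastoma cell lines. In each line, control cells carried the empty lentiviral vector pGreen and shFLI1 cells carried a lentivirus expressing short hairpin RNA against *FLI1*, which encodes an ETS family transcription factor. All cells were infected in the presence of polybrene, selected with puromycin and collected as mixed stable cells, so both arms share polybrene and puromycin. The control cells are titled shControl but described as carrying the empty vector, and the labels and the study's methods name the hairpin plasmid differently, so whether both arms share 1 backbone is not settled. A pair of hairpins was designed, and the labels do not say which one, or whether both, the sequenced shFLI1 cells carried. There was 1 library per arm in each line, so no spread between replicates could be estimated within a line, and the 95% intervals given below cover counting error only.

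TRIM proteins are mostly RING-type ubiquitin ligases with a coiled coil, and many are induced by interferon. Some act on the virus itself and others attach ubiquitin to, or scaffold, the proteins that carry the signal from a viral sensor to the interferon genes. *SAMD9* and *SAMD9L* are neighbouring paralogues, also induced by interferon, whose products block poxvirus replication and restrain protein synthesis and cell growth.

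Interferon induces genes through the interferon-stimulated response element, a short promoter sequence. Its core, GAAA followed by any 2 bases and GAAA again, was searched on both strands of the RefSeq promoter windows of GRCh38.p14, which run from 250 bases before to 50 bases after a gene start, with more than 1 window for some genes. Of the 8 genes, 7 were matched in the promoter table, with 1 window each, and *TRIM22* was not. The core was present in 4 of these 7 windows, against 3.57% of 35116 windows and 2.96% of the 16910 windows of genes measured in both cell lines. The windows around these 4 matches are shown because they display the element in the genes whose levels are described below. Sequences run 5′ to 3′ along the gene's own strand, the minus strand for all 4, with the match in capitals. They lie at chr11:5685067-5685126 (*TRIM5*), chr9:98119214-98119273 (*TRIM14*), chr11:4393653-4393710 (*TRIM21*) and chr7:93118081-93118140 (*SAMD9*).
TRIM5: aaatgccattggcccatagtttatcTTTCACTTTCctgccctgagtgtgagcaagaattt
TRIM14: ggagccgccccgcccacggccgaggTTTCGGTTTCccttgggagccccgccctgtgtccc
TRIM21: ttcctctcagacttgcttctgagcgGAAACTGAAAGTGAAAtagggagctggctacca
SAMD9: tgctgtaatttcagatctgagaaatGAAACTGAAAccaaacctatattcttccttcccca

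In *TRIM5* and *TRIM14* the core was on the opposite strand to the gene and began at -27 and -26 relative to the annotated start. In *TRIM21* a pair of overlapping matches began 17 and 23 bases after the start. In *SAMD9* the match began at -136. A search that allowed at most 1 mismatch was added after the values had been seen. It found a match at -4 in *TRIM56* (chr7:101085452-101085511, plus strand) and at -48 in *SAMD9L* (chr7:93148399-93148458, minus strand), and 33.0% of all windows, or 27.0% of those of measured genes, held such a match.
TRIM56: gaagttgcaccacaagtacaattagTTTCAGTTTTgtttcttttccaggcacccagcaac
SAMD9L: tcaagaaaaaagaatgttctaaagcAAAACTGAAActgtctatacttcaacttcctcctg

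The *TRIM38* window held no match with at most 1 mismatch. The gamma-activated site TTCNNNGAA was in 0 of the 7 windows, in 7.66% of all windows and in 6.44% of those of genes measured in both lines. The extended ETS core CCGGAAGT was likewise in 0 of the 7, in 4.14% of all and in 7.19% of those of measured genes. It was searched only as these exact letters, and shorter or looser ETS cores were not searched, so the windows may hold some. These are matches of letters in short windows and were not tested as binding sites.

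*FLI1*, the targeted gene, was at 9.34 CPM (counts relative to library size, scaled by TMM) in the control and 2.34 in the shFLI1 library of U87MG, a log2 fold change of -1.95 (95% interval -2.51 to -1.51). In U251MG the values were 12.1 and 3.71 CPM, a log2 fold change of -1.68 (-2.05 to -1.37). Library totals ranged from 12229780 to 28891055 counts, and both shFLI1 libraries were deeper than their controls. The glioma and astroglia markers *VIM*, *CD44*, *NES* and *SOX2* were present with at least 1337 counts in every library, and *GFAP* with at least 364. Of the other 5 on that list, *AQP4* and *OLIG2* had 7 counts or fewer, *S100B* 1 to 11 and *CHI3L1* 0 to 15. *SLC1A3* had log2 values of -0.26 (U87MG) and -1.49 (U251MG), the latter past 2-fold, and *GFAP* 1.32 and 2.19, both past 2-fold. Of 6 leukocyte markers 4 were in the table. *PTPRC* had 5 counts or fewer in every library, *CD14* had 10 to 31, and *CD68* went from 47 to 12 counts in U87MG and from 163 to 14 in U251MG. The summed level of the list was 4.98 and 9.87 CPM in the controls and 1.3 and 1.70 CPM in the shFLI1 libraries of U87MG and U251MG, and its part in the results was not tested.

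All 8 genes were lower in the shFLI1 library than in the control of both cell lines, and 6 of them by more than 2-fold in each line. The 6 were *TRIM5*, *TRIM14*, *TRIM21*, *TRIM22*, *SAMD9* and *SAMD9L*, whereas *TRIM38* and *TRIM56* were lower by less than 2-fold. Beside these 6, 4.45% of all genes with enough counts were more than 2-fold lower in U87MG, 4.19% in U251MG and 1.45% in both lines. The share of all genes lower by any amount is not given here, so the 8 of 8 has no such share beside it. Because the 8 genes were chosen with earlier results known, values over all genes are given for scale and are not a test. The median log2 fold change of the 8 genes was -1.31 in U87MG and -1.64 in U251MG, against 0.06 and 0.04 over all genes tested. In the effect shared by both lines, all 8 were lower at an adjusted p under 0.05 by edgeR's quasi-likelihood test with Benjamini-Hochberg adjustment over 16649 genes, in which 2.14% of genes were called lower. In these bulk libraries fewer cells expressing a gene and less of its RNA per cell cannot be told apart. The shared fit takes the 2 cell lines as replicates and has 1 residual degree of freedom.

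**Figure D1:**
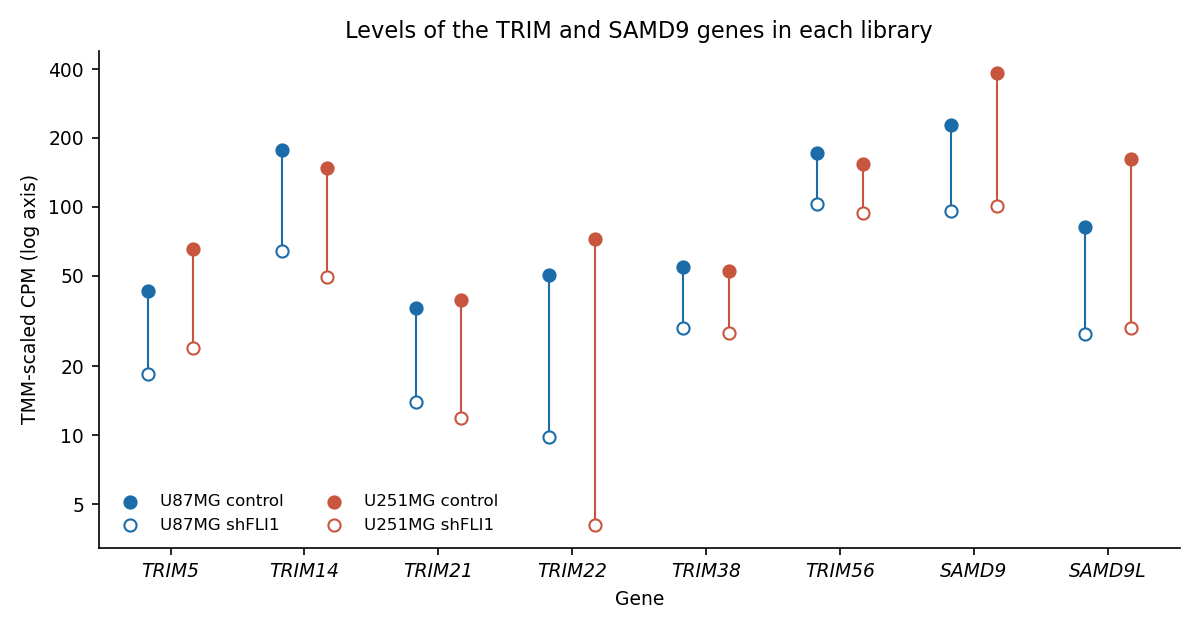
TMM-scaled CPM (log axis) of the 8 genes in each of the 4 libraries, with filled points for control, open points for shFLI1 and a line joining the pair of 1 cell line. Every open point lies below its filled partner, and *TRIM22* in U251MG makes the longest step, from 72.1 to 4.04 CPM.

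Among the proteins that act on the virus itself, TRIM22 represses transcription of the HIV provirus and has been described to act on other viruses. *TRIM22* (gene identifier 10346, chr11:5689790-5710863) was at 50.3 CPM in control and 9.80 CPM in shFLI1 U87MG cells. In U251MG it was at 72.1 CPM in control and 4.04 CPM in shFLI1 cells. The levels of both controls thus lay above those of both shFLI1 libraries, and the U251MG shFLI1 library was the lowest. The log2 fold change was -2.35 (95% interval -2.59 to -2.13) in U87MG and -4.13 (-4.44 to -3.89) in U251MG, which left 19.5% and 5.60% of the control level. The shared log2 fold change was -3.25 (adjusted p = 0.00254, edgeR's quasi-likelihood test).

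TRIM5 binds the capsid of incoming retroviruses and causes it to come apart early. *TRIM5* (gene identifier 85363, chr11:5588635-5685074) stood at 42.8 and 18.6 CPM in control and shFLI1 U87MG cells and at 65.1 and 24.0 CPM in the corresponding U251MG cells. Its controls did not overlap its shFLI1 libraries. On the log2 scale it changed by -1.20 (-1.39 to -1.01) in U87MG and -1.44 (-1.58 to -1.31) in U251MG, with an adjusted p of 0.00280 for the shared effect by edgeR's quasi-likelihood test.

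*TRIM5* and *TRIM22* are neighbours on chromosome 11, 4.72 kb apart in the RefSeq annotation and on opposite strands. In GENCODE release 44 the longest models of the pair overlap by 47480 bases. The sources used here do not say that the counting used strand, so reads from overlapping parts of the pair could not be told apart. *TRIM6* and *TRIM34* lie within the RefSeq span of *TRIM5*. The log2 values for *TRIM34*, on 52 to 126 counts, were -0.90 (U87MG) and -1.005 (U251MG), and those for *TRIM6*, on 13 to 31 counts, were -0.72 and -0.24. On the outer sides, *OR51B5* had 1.05 and 0.37, and *FHIP1B* 0.04 and -0.27.

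TRIM21 is a cytosolic antibody receptor that directs antibody-coated virus to the proteasome. *TRIM21* (gene identifier 6737, chr11:4384897-4393702) was measured through a single RNA. It was at 36.2 CPM in control and 14.0 CPM in shFLI1 U87MG cells, and at 39.0 and 11.9 CPM in U251MG. The controls of the pair of lines were close to each other, and so were the shFLI1 libraries. Its log2 fold change was -1.36 (-1.59 to -1.16) in U87MG and -1.70 (-1.90 to -1.53) in U251MG (shared adjusted p = 0.00220, edgeR's quasi-likelihood test). Its nearest measured neighbours, *RRM1* and *TRIM68*, had log2 fold changes between -0.15 and 0.44.

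TRIM14, which lacks a RING domain, works as an adaptor at mitochondria beside MAVS and keeps the DNA sensor cGAS from being degraded by bringing in the deubiquitinase USP14. *CGAS* itself had 1 count in each control library and 3 in each shFLI1 library. *TRIM14* (gene identifier 9830, chr9:98035797-98119222) was at 177 CPM in control and 63.9 CPM in shFLI1 U87MG cells. In U251MG the values were 148 and 49.5 CPM. Both controls stood more than 2-fold above both shFLI1 libraries. Its log2 fold change was -1.47 (-1.57 to -1.37) in U87MG and -1.58 (-1.67 to -1.48) in U251MG, with a shared adjusted p of 9.26e-04 by edgeR's quasi-likelihood test. *NANS*, which lies within the span of *TRIM14* on the other strand, had log2 fold changes of -0.25 and -0.31, and *CORO2A*, 1.75 kb beyond it, had -2.33 and -1.24.

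TRIM56 promotes signalling from the DNA-sensing adaptor STING and from TLR3. *TRIM56* (gene identifier 81844, chr7:101085481-101097967) was at 173 CPM in control and 103 CPM in shFLI1 U87MG cells, and at 153 and 94.3 CPM in U251MG. This was the smallest change of the 8 genes. It changed on the log2 scale by -0.74 (-0.83 to -0.65) in U87MG and -0.70 (-0.78 to -0.63) in U251MG, and the shared effect had an adjusted p of 0.0268 by edgeR's quasi-likelihood test. With library totals in place of TMM factors, which moves the median of all genes from 0.06 to 0.22 in U87MG, that adjusted p became 0.0721.

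TRIM38 limits signalling from TLR3 and TLR4 by promoting loss of their adaptors. *TRIM38* (gene identifier 10475, chr6:25962802-25991231) was at 54.3 CPM in control and 29.5 CPM in shFLI1 U87MG cells. In U251MG it was at 52.3 and 28.2 CPM. Its log2 fold change was -0.88 (-1.04 to -0.72) in U87MG and -0.89 (-1.03 to -0.76) in U251MG. Both intervals include the 2-fold threshold, at -1, so this gene lay just outside it and *TRIM5* in U87MG just inside. The shared adjusted p was 0.0142 by edgeR's quasi-likelihood test. A long non-coding RNA on the opposite strand overlaps *TRIM38* by 7420 bases in GENCODE, and reads of the overlap could not be told apart without strand.

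SAMD9 restricts poxviruses that lack its viral inhibitors, and inherited gain-of-function variants of it slow cell growth. *SAMD9* (gene identifier 54809, chr7:93099518-93117979) was at 228 CPM in control and 95.9 CPM in shFLI1 U87MG cells, and at 383 and 101 CPM in U251MG. The U251MG control stood highest and the shFLI1 libraries lay close together. It changed on the log2 scale by -1.25 (-1.33 to -1.16) in U87MG and -1.93 (-1.99 to -1.87) in U251MG (shared adjusted p = 0.00342, edgeR's quasi-likelihood test).

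SAMD9L, the paralogue encoded next to SAMD9, shares its antiviral and growth-restraining activity. *SAMD9L* (gene identifier 219285, chr7:93130056-93148385) was at 81.3 CPM in control and 27.7 CPM in shFLI1 U87MG cells. In U251MG it was at 162 and 29.4 CPM. As for *SAMD9*, the controls differed and the shFLI1 libraries did not differ by much. Its log2 fold change was -1.55 (-1.70 to -1.41) in U87MG and -2.46 (-2.57 to -2.35) in U251MG (shared adjusted p = 0.00201, edgeR's quasi-likelihood test). On the log2 scale the U251MG control lay above the U87MG control by 0.75 for *SAMD9* and 0.99 for *SAMD9L*, whereas the shFLI1 libraries differed by 0.07 and 0.09. The paralogues lie 12.1 kb apart on the same strand. The measured genes on either side of the pair, *CDK6* and *VPS50*, had log2 values of 0.88 and 0.48 (*CDK6*) and of 0.18 and 0.09 (*VPS50*), U87MG first.

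The log2 fold change was more negative in U251MG than in U87MG for 7 of the 8 genes, *TRIM56* being the exception. The difference between the lines (U251MG minus U87MG) was -1.78 (95% interval -2.13 to -1.43) for *TRIM22*, -0.91 (-1.09 to -0.72) for *SAMD9L* and -0.68 (-0.79 to -0.58) for *SAMD9*. It was -0.34 (-0.62 to -0.06) for *TRIM21* and -0.24 (-0.47 to -0.01) for *TRIM5*. The intervals of these 5 genes did not include 0, whereas those of *TRIM14* (-0.24 to 0.03), *TRIM38* (-0.22 to 0.20) and *TRIM56* (-0.08 to 0.15) did. With 1 library per arm these intervals hold counting error alone, and whether the lines differ beyond the spread between cultures could not be tested. The same counts over all genes are not given here. Neither the 7 nor the 5 of the 8 is therefore shown to be particular to these genes.

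**Figure D2:**
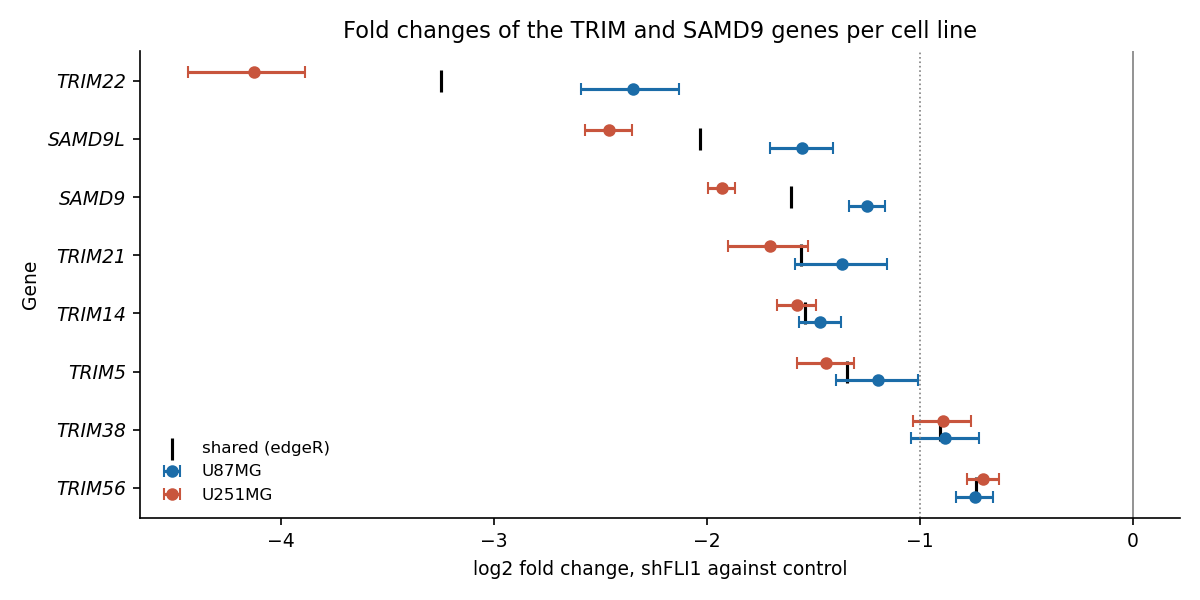
Log2 fold change (shFLI1 against control) of the 8 genes, with points and 95% counting intervals for each cell line and a black bar for the shared estimate of edgeR; the dotted line marks 2-fold. The U251MG point lies left of the U87MG point for every gene but *TRIM56*, and the gap is widest for *TRIM22*, at -4.13 and -2.35.

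Per length, on the scale of the deposited FPKM summed over each gene's RNAs, the order of the genes differed between control and shFLI1 libraries. In the U87MG control *TRIM14* was highest at 61.0 FPKM, followed by *SAMD9* at 32.6 and *TRIM56* at 29.5. In the U251MG control *SAMD9* led at 57.7 FPKM, followed by *TRIM14* at 49.9 and *TRIM5* at 30.5. In the shFLI1 libraries *TRIM56* stood first, at 23.7 FPKM in U87MG, where its counting interval overlapped that of *TRIM14* at 23.6, and at 17.6 FPKM in U251MG. This rank rests on the sum over RNAs. In U87MG, NM_030961 and XM_011516589 gave 5.69 and 7.34 FPKM of it, and URS0001BDE2EB and URS0001BE86A6, with fewer counts, 7.65 and 3.03. The U251MG values were 6.06, 6.12, 2.96 and 2.42. Without the URS entries the order could differ. *TRIM22* was last in both shFLI1 libraries, at 3.89 and 1.60 FPKM, although it had stood sixth in both controls at 17.9 and 27.3. *TRIM5*, *TRIM21* and *TRIM22* formed a run of overlapping neighbours in the U87MG control, as did *SAMD9L*, *TRIM56* and *TRIM22* in the U251MG control.

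The sum over a gene can hide shifts among its RNAs. *SAMD9*, *TRIM14*, *TRIM21* and *TRIM22* were each carried mainly by 1 RNA. NM_017654 held 93.6% to 95.7% of the counts of *SAMD9* in the 4 libraries, and NM_014788 held 75.3% to 79.9% of those of *TRIM14*. *TRIM5* and *SAMD9L* were spread over 16 and 14 listed RNAs. Of the RNAs with enough counts in both lines, 5 of 9 for *TRIM5*, 4 of 5 for *TRIM14*, 5 of 5 for *TRIM38*, 3 of 4 for *TRIM56* and 7 of 8 for *SAMD9L* were lower with shFLI1 in both. The exception in *TRIM56*, URS0001BDE2EB, went from 83.0 to 296 counts in U87MG, a log2 ratio of 0.87, and had -0.25 in U251MG. NM_030961 and XM_011516589 of *TRIM56* had -0.84 and -0.96 in U87MG.

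For *TRIM5*, NM_033034 went from 87.9 estimated counts to 0 in U87MG and from 285 to 70.5 in U251MG. XM_006718358 went the other way in U87MG, from 23.6 to 66.5 counts, but not in U251MG, where it went from 25.3 to 16.5. The RNA with the most counts, XM_005253183, held 37.0% of *TRIM5* in the control and 39.2% in the shFLI1 library of U87MG, and 38.8% and 54.0% in U251MG. Taken alone, it had log2 fold changes of -1.08 and -0.95, the second under 2-fold. For *SAMD9L*, NM_152703 moved from 18.3% to 28.0% of the gene's counts in U87MG and from 23.8% to 35.9% in U251MG, and alone had log2 fold changes of -0.90 and -1.85. NM_001303496 moved from 21.1% to 4.09% in U251MG and from 11.3% to 9.59% in U87MG. These shares rest on how the estimating tool split reads among overlapping RNAs, and they carry no error here.

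**Figure D3:**
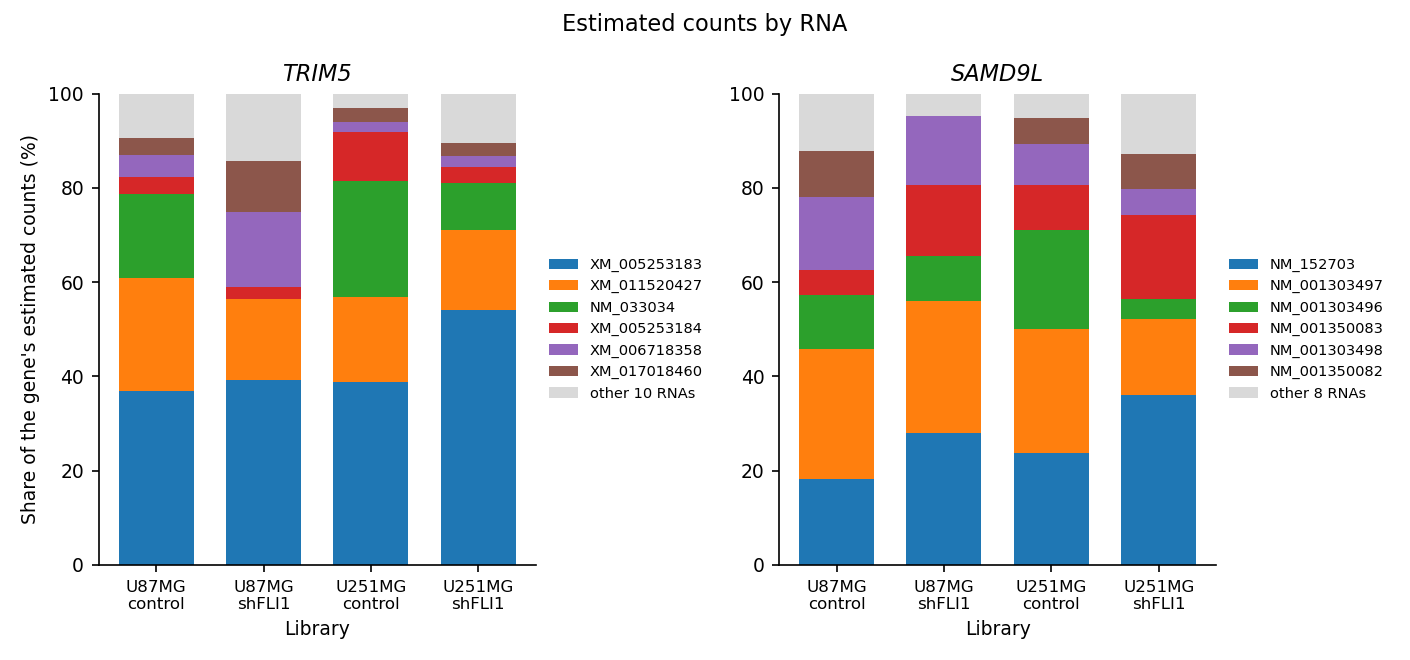
Share (%) of the estimated counts of *TRIM5* (left) and *SAMD9L* (right) held by each of the 6 RNAs with the most counts, and by the others together, in the 4 libraries. In *TRIM5* the share of NM_033034 (green) went from 17.9% to 0 in U87MG and from 24.6% to 9.81% in U251MG.

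Most other genes of the TRIM family did not pass 2-fold in either line. Of 69 other TRIM genes, 52 were in the table and 36 had enough counts. Among these 36, the genes more than 2-fold lower numbered 1 (U87MG), 4 (U251MG) and 1 (both lines), and those more than 2-fold higher 2, 1 and 1. The share of all genes more than 2-fold higher is not given here, so counts of higher genes in this and the following lists have no scale. Beside this and the following lists, 4.45%, 4.19% and 1.45% of all genes tested were more than 2-fold lower in U87MG, U251MG and both lines. The medians of the 36 were -0.15 and 0.01 on the log2 scale, against 0.06 and 0.04 over all genes tested. *TRIM69*, the gene lower in both, had log2 fold changes of -2.10 and -2.06 on 6 to 23 counts. *TRIM2*, a neuronal ubiquitin ligase and the gene higher in both, had 1.02 and 1.03 (shared adjusted p = 0.00698, edgeR's quasi-likelihood test).

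A narrower list held 18 further TRIM family genes with described antiviral roles, of which 15 had enough counts. More than 2-fold lower were 2 (U87MG), 4 (U251MG) and 2 (both lines), and none was higher, with medians of -0.23 and -0.21. *PML*, which organises the nuclear bodies that silence viral genomes, was the other gene lower in both, at -1.36 and -1.65. At the other end *TRIM23* had 0.56 and 0.52, *TRIM41* 0.19 and 0.19 and *TRIM44* 0.19 and 0.17, none past 2-fold. The shared effect was called lower for 3 of the 15 genes by edgeR's quasi-likelihood test, *PML*, *TRIM25* and *TRIM26*.

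Among restriction factors outside the family, 24 were listed and 5 of 19 were more than 2-fold lower in U87MG, 9 of 20 in U251MG and 5 in both lines, with medians of -0.75 and -0.83 and none higher. *SHFL*, an inhibitor of ribosomal frameshifting, had -2.27 and -3.08. *PLSCR1*, a phospholipid scramblase, had -1.59 and -2.73, and *APOBEC3D*, a DNA cytidine deaminase, -2.37 and -1.41 on 5 to 71 counts. *MARCHF8*, *SERINC5* and *SERINC3*, which act on viral envelopes and entry, stood at the other end, with values between 0.08 and 0.68. A further list held 22 partners of the TRIM proteins, most but not all of them in signalling. Of 20 with enough counts, 1 was more than 2-fold lower in each line, *TLR3*, the sensor of double-stranded RNA, with -1.29 and -2.12, and the medians were -0.04 and -0.11. *TICAM1* had -0.37 and -0.58 and *STING1* -0.60 and -0.32, whereas *TAB3*, *UBE2V1* and *MAP3K7* lay between 0.27 and 0.45.

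**Figure D4:**
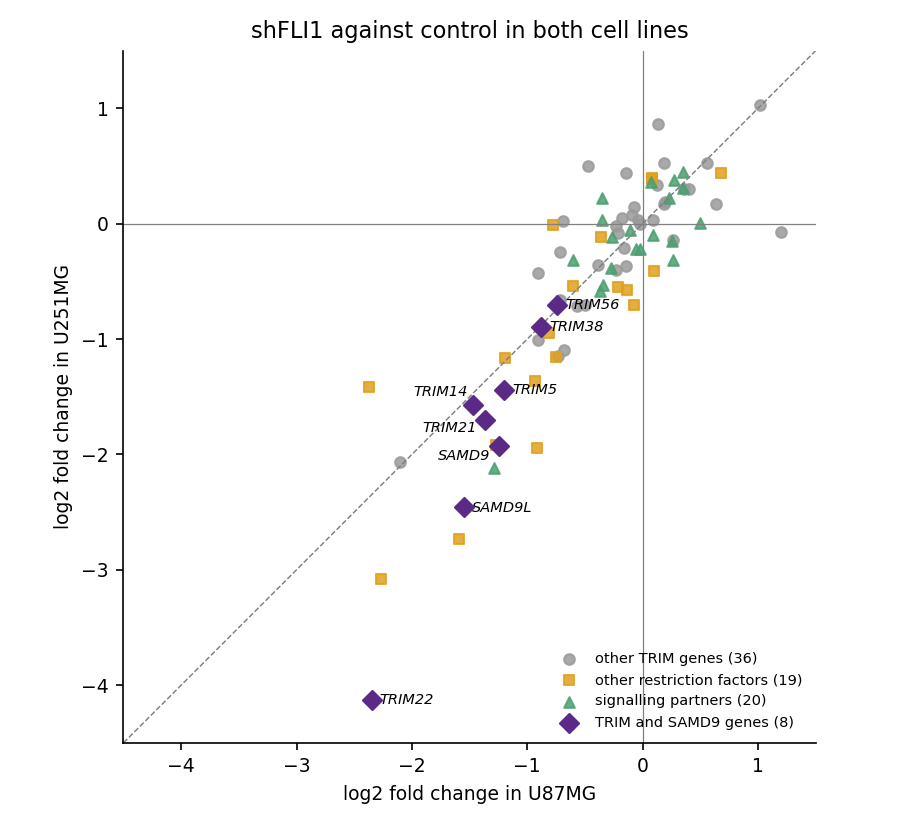
Log2 fold change (shFLI1 against control) in U87MG and U251MG, with the dashed line marking equal values. Points are the 8 TRIM and SAMD9 genes, 36 other TRIM genes, 19 other restriction factors and 20 partners, labelled signalling partners. The other TRIM genes and the partners centre near 0 (medians -0.15 and 0.01, and -0.04 and -0.11), while 6 of the 8 labelled genes lie below -1 on both axes.

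In the pathway that carries the interferon signal to the nucleus, the transcription factor genes *STAT2*, *IRF9* and *IRF1* were lower. Their log2 fold changes, U87MG first, were -1.36 and -1.51 for *STAT2*, -0.96 and -1.31 for *IRF9* and -0.88 and -1.80 for *IRF1*. These genes were called lower in the shared effect by edgeR's quasi-likelihood test. The receptor and kinase genes were not called, *IFNAR1* at 0.58 and 0.43, *IFNAR2* at 0.20 and 0.15, *JAK1* at -0.24 and 0.28 and *TYK2* at -0.08 and -0.10. Of 9 interferon genes listed, 3 were in the table, *IFNB1*, *IFNA1* and *IFNE*. Together they had 8 and 16 counts in control and shFLI1 U87MG cells and 8 and 6 in U251MG, too few to compare.

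The genes whose levels followed each member most closely were sought among 9772 genes with at least 100 counts in every library, by the distance between log2 CPM profiles over the 4 libraries, each centred on its mean. For *TRIM5* the closest were *STAT2*, *AGTRAP* and *TDRD7*, and for *TRIM14* *PML*, *SCG2* and *SP100*. *TRIM21* was closest to *SP100*, *PML* and *NMI*. *TRIM22* was closest to *IFI6*, *OAS1* and *HERC6*, and *SAMD9L* to *B2M*, *BTN3A2* and *HERC5*. *SAMD9* was closest to *CPA4*, *SAMHD1* and *GDF15*, *TRIM38* to *SHISA5*, *CCND3* and *E2F2*, and *TRIM56* to *AJUBA*, *TRAM2* and *DLX1*. The distance to the first of these ranged from 0.04 for *TRIM56* to 0.28 for *TRIM22*. A profile of 4 libraries is short, and the ranking is a description.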

How the data were processed

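RNA was sequenced from control and shFLI1 cells of 2 glioblastoma cell lines, 1 library each, 4 in all. The authors trimmed the reads, aligned them to GRCh38 (GRCh38.p13 per the submitters' processing notes) using HISAT2, and used StringTie for FPKM. The deposited table holds estimated counts, not normalized, and the authors' FPKM values for each RNA. The tool behind the estimated counts and the use of strand are not given in the sources used here. A further 10 value columns were not used.

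Estimated counts of linear RNAs were summed per gene identifier and rounded, giving 12229780 to 28891055 counts per library. Fold changes used TMM-scaled log2 CPM with a prior count of 2, required at least 10 counts in either library of a line, and were called past 2-fold. Intervals of fold changes are 95% Clopper-Pearson intervals of read proportions. Those of differences between the lines are normal approximations from the counts. FPKM intervals are Poisson intervals of a gene's total counts, rescaled to its summed FPKM. They can be too narrow, since URS0001BDA056 gave 9.71 FPKM of *TRIM14* on 11 counts in the U251MG control. PCR reads are not independent molecules, so all these intervals cover counting error only. The shared effect was tested with edgeR 4.0.16 (R 4.3.3; quasi-likelihood test, filterByExpr, TMM over the genes kept, cell line as a block) at an adjusted p of 0.05. With the block, its residual spread is the disagreement of the knockdown effect between the 2 lines, drawn towards a trend over all genes. The labels name no separate cultures, so its p-values do not measure the spread between cultures of a line. DESeq2 1.42.0, other scalings, filters, pseudocounts and thresholds and thinned counts were tried.

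The genes and gene lists were chosen with earlier results of these data known. For lists of over 12 genes the 3 with the lowest and the 3 with the highest mean log2 fold change were named, with genes past the threshold, nearest measured neighbours and the 3 closest profiles. *TRIM25*, *TRIM26* and *CGAS* were named after their values were seen. Some genes of the lists are not reported here. Promoter sequences are from RefSeq (GRCh38.p14), and overlaps from GENCODE release 44.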

Additional observations from a re-analysis of the deposited data

How the results depend on the processing

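All 8 genes stayed lower with shFLI1 in both lines under each alternative run, with log2 fold changes from -0.30 (*TRIM56*, U87MG) to -4.15 (*TRIM22*, U251MG). With the authors' FPKM and a pseudocount of 1, *TRIM56* and *TRIM38* in U87MG were at -0.30 and -0.42, against -0.74 and -0.88 in the main run. The count past 2-fold was 6 in each line and in both, except with the authors' FPKM and a pseudocount of 1 (5, 6 and 5 in U87MG, U251MG and both) and with the most abundant RNA alone (5, 5 and 4). At 1.5-fold it was 8 throughout, and at 4-fold it was 1, 2 and 1. Of all genes tested, 9.92% and 8.85% were lower in U87MG and U251MG at 1.5-fold, 1.12% and 1.34% at 4-fold, 1.76% and 1.65% with FPKM and a pseudocount of 1, 6.16% and 5.66% with the most abundant RNA alone, 2.33% and 2.18% with at least 100 counts and 6.11% and 6.87% with at least 1 count. In the shared effect all 8 stayed called with DESeq2, other filters, thinned counts and, added after the data were seen, TMM factors from all genes, where 266 genes were called lower against 356. With library totals 7 were called, *TRIM38* at an adjusted p of 0.0467 and *TRIM56* being lost at 0.0721, both by edgeR's quasi-likelihood test. Then 199 genes (1.2% of those tested) were lower and 166 higher, against 356 and 153. With genes of at least 1 count in any library kept, 736 of 43576 genes (1.69%) were lower. Without the cell line as a block edgeR called 0 of 8 and 0 of 16649 genes, with 8 of 8 and 725 genes at an unadjusted p under 0.05. The cause was not tested.

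No replicate was left out, since each arm has 1 library. The shared effect pairs the arms by cell line. Counts of 121 or more bound the counting error of the 8 genes, not the variation between cultures.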

Other observations

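Of the 20 restriction factors outside the TRIM family that entered edgeR's quasi-likelihood test, 7 were called lower in the shared effect. They included *SHFL* and *PLSCR1* but not *APOBEC3D* (adjusted p = 0.0813, edgeR). *SAMHD1*, which depletes the nucleotides needed for reverse transcription, had log2 values of -1.27 (U87MG) and -1.92 (U251MG). *MOV10*, an RNA helicase, had -1.19 and -1.16. *EIF2AK2*, the kinase PKR that halts translation on double-stranded RNA, had -0.94 and -1.36. *N4BP1*, an RNA-degrading enzyme, had -0.75 and -1.16, and *APOBEC3F*, a DNA cytidine deaminase, -0.81 and -0.95. *SAMHD1*, *MOV10*, *EIF2AK2*, *N4BP1* and *APOBEC3F* were named after their values were seen.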
